A study of Mus musculus with 18 samples.

Results

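The untrained state of mouse motor cortex astrocytes was described from the 6 naive libraries of a series of 18. The members were the libraries whose table columns and labels carry the name naive, and the other 12 came from trained mice. The series followed gene expression in astrocytes of the M1 region, the primary motor cortex, in C57BL/6 mice during learning of a lever task, in which water-restricted mice pushed a lever after a cue for a drop of water. Novice mice had 3 days of training and expert mice were fully trained, with 6 libraries each, while naive mice had none. The naive mice were labelled as 12, 21, 14, 14, 15 and 14 weeks old in replicates 1 to 6, with replicates 3 and 5 female and the other 4 male. Novice mice were labelled as 11 to 13 weeks old and expert mice as 13 to 15 weeks old, each group with 2 females and 4 males. The labels do not say how the astrocytes were isolated, nor whether each library came from 1 animal or several.

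Astrocytes take up glutamate and potassium released by neurons, couple to each other through gap junctions, line blood vessels with water channels, and release lipoproteins and matrix proteins. They read neuronal activity mainly through receptors on their surface. The genes of interest were therefore sorted by role, into receptors, transporters, channels, transcription factors and secreted proteins. Levels are given in FPKM, the fragments counted for each kilobase of a transcript relative to all mapped fragments, so that genes can be compared per length. A gene was called expressed at a median of 10 FPKM or more over the 6 libraries.

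The label was checked against 22 astrocyte markers, and all 22 were expressed, beside 20.3% of all genes. Slc1a2 (GLT-1), which clears most synaptic glutamate, was listed with 1783, 2341, 1222, 1833, 655 and 548 FPKM in naive 1 to 6. Aldoc, a glycolytic enzyme of astrocytes, had a median of 701 FPKM, and Aldh1l1, a folate enzyme used as a general astrocyte marker, one of 41.8 FPKM. Gfap, the intermediate filament protein that is sparse in cortical astrocytes, was the lowest of the 22 at 16.7 FPKM, with 9.09 to 35.4 FPKM across libraries. The forebrain factors Lhx2 (37.5 FPKM) and Emx2 (20.5 FPKM) were expressed, and 5 of 8 telencephalic factors but 0 of 24 factors of other brain regions reached 10 FPKM.

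Transcripts of other cell types were present beside them. Of 18 neuronal markers 14 were expressed, led by the kinase Camk2a at 390, 416, 423, 474, 48.1 and 36.2 FPKM. Of 15 endothelial markers 13 were expressed, led by the glucose transporter Slc2a1 with a median of 70.9 FPKM. Expressed markers numbered 4 of 13 for pericytes, smooth muscle and fibroblasts and 5 of 12 for oligodendrocytes. They numbered 3 of 14 for microglia and macrophages, 2 of 10 for ependyma and choroid plexus, 1 of 9 for oligodendrocyte precursors and 1 of 9 for blood. Of all genes 20.3% were expressed. The counts from microglia to blood lie near or below that share and alone do not show these cells to be present. Fewer cells of a type and less RNA per cell cannot be told apart in such bulk libraries. The part of these cells in the levels below was not tested.

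**Figure D1:**
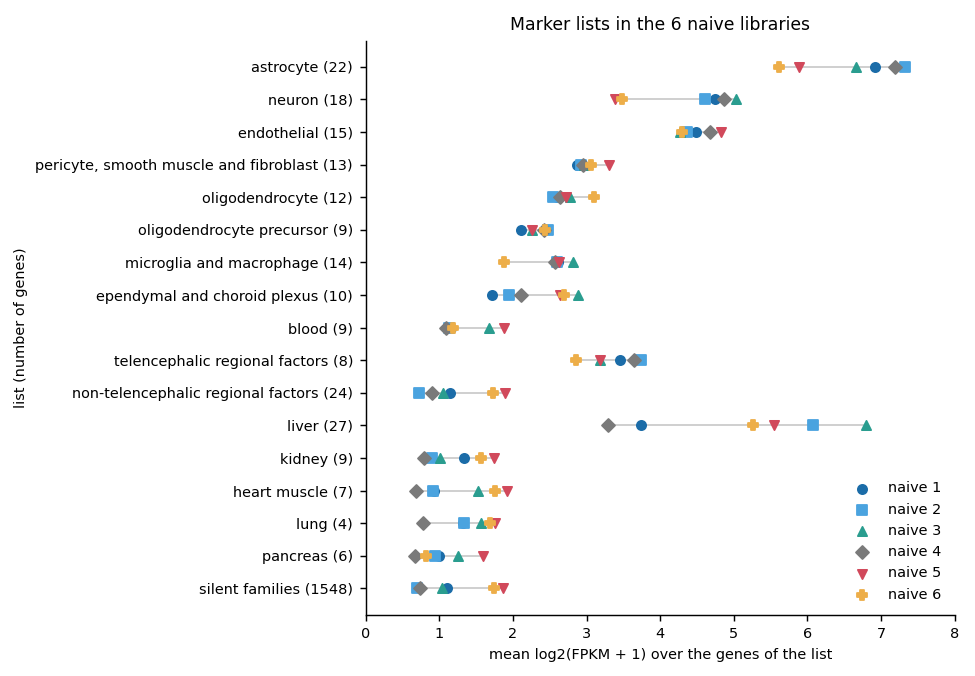
Mean log2(FPKM + 1) of each marker list (x axis) in the 6 naive libraries (symbols), with the number of genes of the list in brackets. The astrocyte list lies between 5.61 and 7.33, naive 5 and 6 are the lowest in the astrocyte and neuronal lists and the highest in the silent families, and the liver list has the widest range, from 3.29 to 6.80.

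Naive 5 and naive 6 stood apart. A background was taken from 1548 genes of sensory, hair and epithelial families that brain cells rarely transcribe (olfactory and vomeronasal receptors, bitter taste receptors, hair keratin associated proteins and beta defensins). Its mean was 2.37, 1.43, 2.13, 1.48, 5.62 and 5.68 FPKM in naive 1 to 6. Correlations of log2(FPKM + 1) over expressed genes were 0.76 to 0.81 among naive 1 to 4 and 0.77 between naive 5 and 6, but 0.49 to 0.66 across, which describes genes of the same libraries and not replicates. Naive 5 was labelled female and 15 weeks old and naive 6 male and 14 weeks old, so the pair shares neither label. The leading genes are therefore given library by library.

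The deposited values alone do not fix the direction of most genes in that pair. Of 4854 expressed genes, 862 were higher in both than in each of the other 4 (17.8%) and 2690 were lower in both (55.4%). After median of ratios scaling, which sets the typical expressed gene equal between libraries, the same genes divided into 28.8% higher and 26.9% lower. That scaling shifted the median of all expressed genes by -0.11 on the log2 scale, with library factors from 0.719 in naive 6 to 1.32 in naive 2. The astrocyte list was lower in naive 5 and 6 both ways, by a median log2 difference of -1.36 as deposited and -0.69 after scaling, and so was the neuronal list, at -1.44 and -0.82. Silent families stood at 0.93 and 1.35, and endothelial markers at 0.11 and 0.76. The pair was taken as the 2 libraries of highest silent family mean, so the higher silent families follow from that choice.

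**Figure D2:**
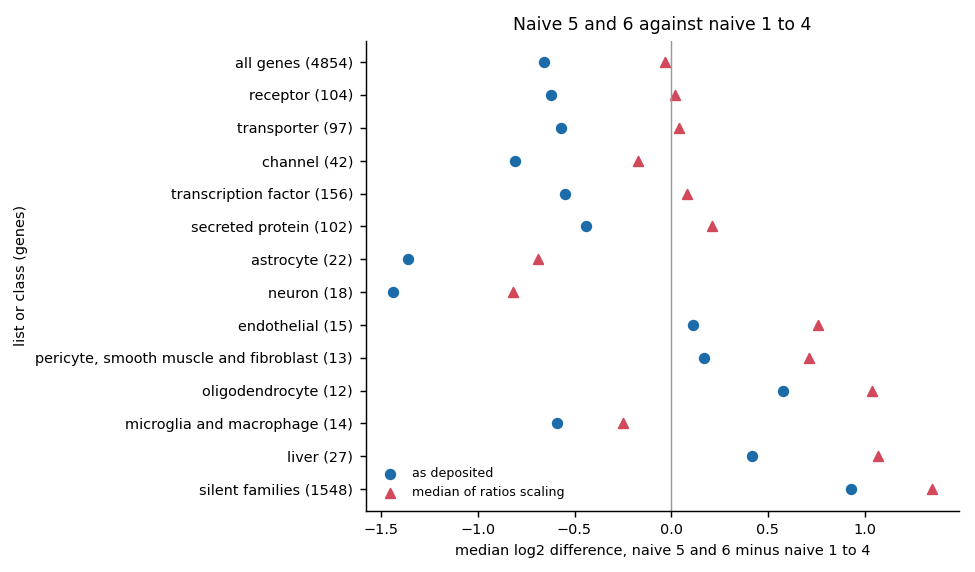
Median log2 difference between naive 5 and 6 and naive 1 to 4 (x axis) for all expressed genes, the expressed members of the 5 classes and selected marker lists, as deposited (circles) and after median of ratios scaling (triangles). Astrocyte and neuronal lists stay below 0 in both, and silent families, by which the pair was chosen, above. Receptors, transporters, transcription factors and secreted proteins move from -0.62, -0.57, -0.55 and -0.44 to 0.02, 0.04, 0.08 and 0.21.

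The top of the ranking over all genes was held by short RNAs. Bc1, a short neuronal RNA that represses translation in dendrites, ranked 1 with 566130, 435346, 791516, 1050000, 92573 and 40240 FPKM, between 6.01% and 54.8% of all FPKM in its library. Naive 5 and 6 were the lowest. A predicted locus came next, and then Mir6236, Snord87, Snord33, Snord34, Mir8114, Rpph1, Snord15b and Mir680-2, whose medians ran from 76047 down to 6736 FPKM. Rpph1 is the RNA of ribonuclease P, and the Snord genes encode small nucleolar RNAs that guide methylation of ribosomal RNA. Their annotated lengths are 70 to 319 bases, and Bc1 has 168. Dividing by so short a length inflates FPKM, and these values are not comparable with those of messenger RNAs. Among the 100 highest genes, 50 were small RNA genes, 10 encoded ribosomal proteins and 10 belonged to the 5 classes, of which Apoe at rank 18 was the highest.

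Receptors carry the signals that astrocytes receive, and 104 of 623 were expressed (16.7%, beside 20.3% of all genes). S1pr1, a receptor for the lipid sphingosine 1-phosphate, was the highest, at 158, 189, 127, 184, 99.9 and 69.5 FPKM. Gpr37l1, an orphan receptor of astrocytes, followed at 154, 207, 117, 201, 83.4 and 71.9 FPKM. The order of these first members was not settled, since S1pr1 exceeded Gpr37l1 in 3 of 6 libraries. Ntrk2, the receptor of brain-derived neurotrophic factor, had a median of 119 FPKM, and Ntsr2, a neurotensin receptor, one of 118 FPKM (range 88.5 to 191). Ptprz1, a receptor phosphatase that binds pleiotrophin, stood at 103 FPKM and exceeded the fibroblast growth factor receptor Fgfr3, at 86.0 FPKM, in 6 of 6 libraries.

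Receptors for the main transmitters differed by kind in how many were expressed, beside 16.7% of all receptors and 20.3% of all genes. Of 17 class C receptors coupled to G proteins 4 were expressed (23.5%). Among them Gabbr1, a subunit of the GABA B receptor, stood at 76.6, 112, 65.9, 85.4, 37.7 and 24.0 FPKM. Grm3, the metabotropic glutamate receptor of mature astrocytes, stood at 78.5, 121, 59.8, 86.1, 30.9 and 26.3 FPKM, and Gabbr1 exceeded it in 2 of 6 libraries, so the pair was not separated. Of the 35 receptors for monoamines and acetylcholine, 0 reached 10 FPKM, and the highest was the adrenergic receptor Adra2b with 6.86 FPKM. Adra2b was highest in naive 5 and 6, at 11.1 and 9.57 FPKM, and lowest in naive 2, as the silent family mean was. The part of that background in its level was not tested. Adora1, a receptor for adenosine, was the only 1 of 12 purine receptors at a median of 10 FPKM or more, with 20.2 FPKM. Of 67 subunits of ligand-gated channels 8 were expressed, led by the AMPA receptor subunit Gria2 at 38.3 FPKM, and all 8 were lower in naive 5 and 6 as deposited, beside 55.4% of all expressed genes. After scaling 4 of the 8 were lower, beside 26.9%, and Gria2 overlapped.

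Growth factor and contact receptors made up much of the rest. Receptor tyrosine kinases were expressed in 17 of 53 cases and receptor tyrosine phosphatases in 10 of 20. Lrp1, which takes up apolipoprotein E particles, led its family at 49.3 FPKM. Ifnar1, a subunit of the type I interferon receptor, stood at 112, 74.2, 109, 78.3, 280 and 266 FPKM, and Tnfrsf10b, a death receptor, at 86.5, 51.5, 77.9, 50.5, 192 and 192 FPKM. Both were highest in naive 5 and 6, the libraries of highest silent family signal, and remained so after scaling. Of the 16 expressed cytokine, TNF and Toll-like receptors, 10 were higher in that pair as deposited and 11 after scaling, beside 17.8% and 28.8% of all expressed genes.

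Transporters held the highest levels among the membrane classes of receptors, transporters and channels, and 97 of 468 were expressed (20.7%). Slc1a3 (GLAST), the partner of Slc1a2 in glutamate uptake, reached 569, 794, 401, 649, 235.2 and 216 FPKM, and the pump subunit Atp1b2 at 328, 434, 280, 444, 153 and 132 FPKM. The order Slc1a2, Slc1a3, Atp1b2 and then Slc25a4, the mitochondrial ADP/ATP carrier, with a median of 206 FPKM, was the same in 6 of 6 libraries. Slc4a4, the sodium bicarbonate cotransporter, had a median of 88.1 FPKM. Slc25a18, a mitochondrial glutamate carrier, stood at 87.8 FPKM.

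Members not typical of astrocytes were also among the 10 highest transporters. Slc6a18, an amino acid transporter known from kidney, stood at 105, 61.3, 88.4, 78.0, 288 and 240 FPKM, and Slc16a10, which carries aromatic amino acids and thyroid hormone, at 134.1, 57.7, 116, 69.3, 248 and 254 FPKM. In each, naive 5 and 6 were the highest and naive 2 the lowest, as they were in the silent family mean. The part of that background in these levels was not tested.

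Channels numbered 42 expressed of 267 (15.7%). Tmem38b, a cation channel of the endoplasmic reticulum, was the highest, at 222, 377, 262, 259, 181 and 102 FPKM. Gja1, the connexin 43 of astrocyte gap junctions, stood at 253, 314, 176, 318, 124 and 116 FPKM, and the anion channel protein Ttyh1 at 224, 325, 157, 276, 116 and 104 FPKM. Tmem38b exceeded Gja1 in 3 of 6 libraries, so these did not differ in order. Kcnj10, the Kir4.1 channel that clears potassium, had a median of 73.2 FPKM and the water channel Aqp4, the only 1 of 11 aquaporins expressed, one of 62.7 FPKM. Kcnk1, a leak potassium channel, stood at 56.0 FPKM, Itpr1, a calcium release channel, at 55.4 FPKM, and Gjb6, the connexin 30 of astrocytes, at 46.2 FPKM. All 3 mitochondrial porins were expressed, led by Vdac1 with 60.3 FPKM. From Kcnj10 to Kcnk1 each neighbour in the order of medians exceeded the next in 3 of 6 libraries. Gjc3 itself, a connexin, was highest in naive 5 and 6, at 161 and 173 FPKM beside 46.4 to 77.3 FPKM.

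Transcription factors had 156 of 1003 members expressed (15.6%), and the numbered zinc finger genes led by level. Zfp277 stood at 670, 347, 556, 389, 1556 and 1432 FPKM, Zfp488 at 578, 306, 539, 396, 1364 and 1329 FPKM, and Zfp65 at 408, 215, 365, 228, 859 and 1017 FPKM. All 3 were highest in naive 5 and 6 and lowest in naive 2 and 4, where the silent family mean was also lowest. Of 40 expressed numbered zinc finger genes 22 were higher in that pair as deposited and 27 after scaling, beside 17.8% and 28.8% of all expressed genes. The part of that background in their levels was not tested.

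Below them stood factors with known roles in astrocytes. Epas1, the hypoxia factor HIF2 alpha, stood at 118, 132, 92.8, 147, 104 and 75.4 FPKM, with naive 5 inside the range of naive 1 to 4. Thra, the thyroid hormone receptor alpha, had a median of 89.8 FPKM, and the inhibitors of differentiation Id2 and Id4 had medians of 84.2 and 75.0 FPKM. All 4 nuclear factor I genes, which drive the astrocyte fate, were expressed, led by Nfix at 40.8 FPKM and each lower in naive 5 and 6, as deposited and after scaling. Sox9, another factor of astrocyte fate, stood at 59.0, 84.8, 49.5, 66.1, 29.5 and 32.8 FPKM. Pou3f3 led the 16 expressed homeodomain factors at 41.2 FPKM, of which 14 were lower in the pair as deposited and 7 after scaling, beside 55.4% and 26.9% of all expressed genes.

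**Figure D3:**
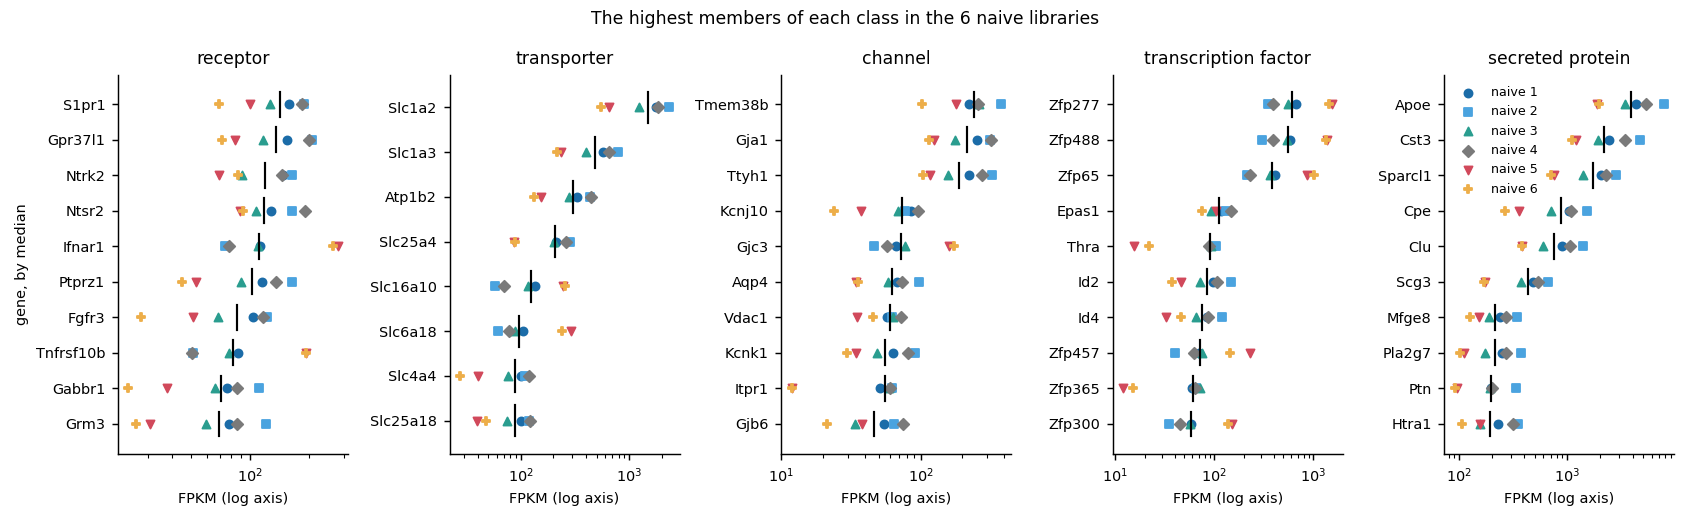
FPKM (log axis) of the members named among the 10 highest of each class in the 6 naive libraries (symbols), with the median as a bar and genes not reported here left out. Naive 5 and 6 lie to the left in most rows and to the right in 10, among them Ifnar1, Slc6a18, Gjc3 and Zfp277.

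Of the 5 classes, secreted proteins reached the highest levels, and 102 of 516 were expressed (19.8%). Apoe, the lipid carrier of the brain, stood at 4347, 7813, 3427, 5303, 1869 and 1964 FPKM. Cst3, a protease inhibitor, stood at 2427, 4738, 1927, 3441, 1192 and 1111 FPKM, and Sparcl1, a matrix protein that promotes synapse formation, at 2048, 2786, 1388, 2289, 759 and 711 FPKM. The order Apoe, Cst3, Sparcl1 and then the prohormone processing enzyme Cpe, with a median of 874 FPKM, was the same in 6 of 6 libraries. Clu, a chaperone that binds lipids, had a median of 749 FPKM and the granin Scg3 one of 427 FPKM. Mfge8, which tags particles for engulfment, stood at 213 FPKM, Pla2g7, a phospholipase, at 212 FPKM, the growth factor Ptn at 195 FPKM and the protease Htra1 at 192 FPKM. Ptn exceeded Htra1 in 1 of 6 libraries, so their order by median was not that of most libraries. Bcan, the proteoglycan brevican, led the matrix genes at 154 FPKM, and 7 of 73 of these were expressed. All 10 leading secreted proteins were lower in naive 5 and 6 as deposited, beside 43.1% of expressed secreted proteins and 55.4% of all expressed genes. After scaling, Mfge8 and Htra1 overlapped between the pair and the other 4, and the other 8 did not. The shares lower were then 22.5% of expressed secreted proteins and 26.9% of all expressed genes.

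Over the 5 classes together, 38 of the 50 leading genes were lower in naive 5 and 6 as deposited, 10 were higher and Epas1 and Gjb6 overlapped. Of all expressed genes 55.4% were lower and 17.8% higher. After scaling 26 were still lower, 12 of those 38 overlapped, and the 10 higher genes were still higher, beside 26.9% lower and 28.8% higher among all expressed genes. The ranks themselves moved little. Of each class's 10 leading genes, between 8 and 10 stayed among the 10 highest under every other summary, scaling, background subtraction and omission of libraries tried. Scaling, and taking the same silent family mean from every gene of a library, keep the order of genes within a library. These settings could therefore hardly move the ranks, and they do not show how much background a single gene holds.

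Spread between libraries was measured as the SD of log2(FPKM + 1) over the 6 libraries. Its median was 0.59 over all expressed genes, 0.53 in receptors, 0.55 in transporters, 0.56 in channels, 0.52 in transcription factors and 0.65 in secreted proteins. Without naive 5 and 6 it was 0.28 over all genes and 0.26 to 0.28 in the first 4 classes, but 0.40 in secreted proteins. A gene of 1 kb at 10 FPKM rested on about 5.28 to 12.3 fragments in a library, so counting error alone is sizeable near that level.

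**Figure D4:**
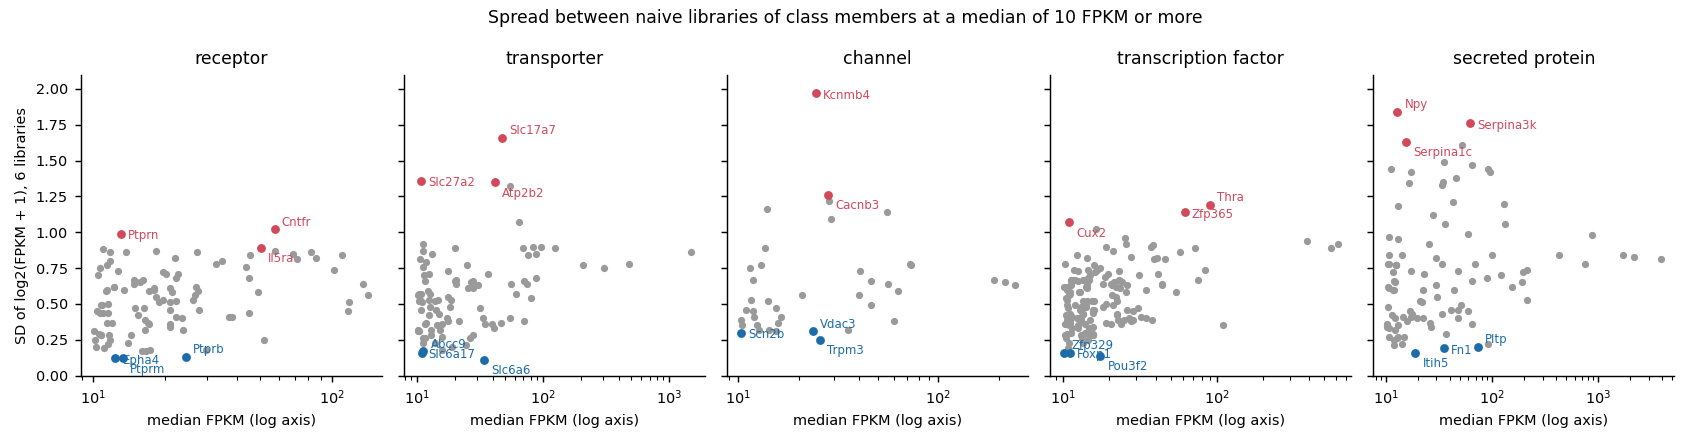
SD of log2(FPKM + 1) between the 6 naive libraries against median FPKM (log axis) for the expressed members of each class, with up to 3 of the widest named in red and the 3 narrowest in blue, and genes not reported here left out. The widest are Kcnmb4 at 1.97, Npy at 1.84 and Serpina3k at 1.76, and the narrowest is Slc6a6 at 0.11. Kcnmb4 and Npy are each listed at 0 in naive 6.

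The most variable members also depended on the scaling, and as deposited they included genes known from neurons. Slc17a7, the vesicular glutamate transporter of cortical excitatory neurons, stood at 46.9, 47.8, 62.9, 50.9, 7.24 and 3.26 FPKM (SD 1.66). Kcnmb4, a subunit of calcium-activated potassium channels, stood at 24.7, 24.0, 25.9, 40.4 and 10.6 FPKM in naive 1 to 5 and was listed at 0 in naive 6 (SD 1.97). The calcium pump Atp2b2 (SD 1.35) and the calcium channel subunit Cacnb3 (SD 1.26) were each lower in naive 5 and 6 than in the other 4. So were Thra (SD 1.19), Zfp365 (SD 1.14) and Cux2, a factor of upper layer neurons (SD 1.07). Cntfr, a receptor of ciliary neurotrophic factor (SD 1.02), and Ptprn (SD 0.99) were lower there too. The secreted neuropeptide Npy (SD 1.84), with a median of 12.85 FPKM, was also lower in the pair and was listed at 0 in naive 6. After scaling Npy was not among the 3 widest secreted proteins, which were Serpina3k, Serpina1e and Serpina1c. Il5ra, the third receptor by spread (SD 0.89), was higher in the pair, and the fatty acid carrier Slc27a2 (SD 1.36) overlapped. After median of ratios scaling the widest receptors were Il5ra, the chemokine receptor Cxcr2 and Tnfrsf10b, and the widest transcription factors were Zfp92, Zfp65 and Zfp277, all higher in naive 5 and 6. Of the 20 widest receptors 10 were higher and 9 lower in the pair as deposited, and 18 and 1 after scaling. For transcription factors these counts were 10 and 8, then 20 and 0. Transporters had 6 and 11, then 15 and 3, and channels 4 and 15, then 8 and 9. Secreted proteins had 0 and 3, then 2 and 1. Of all expressed genes 17.8% were higher and 55.4% lower as deposited, and 28.8% and 26.9% after scaling. A spread over 6 libraries is wide where 2 stand apart, so these counts test nothing. Slc17a7, Slc27a2, Kcnmb4, Il5ra, Serpina3k and Serpina1c were among the 3 widest of their class both ways. The neuronal list moved in the same libraries as the genes lower in the pair, with means of 3.39 and 3.48 in naive 5 and 6 beside 4.61 to 5.03, and the silent family mean was highest there. The part of either in these genes was not tested.

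The least variable members changed with the scaling too. As deposited they were the taurine transporter Slc6a6, at 32.9, 32.0, 35.6, 35.1, 39.1 and 32.2 FPKM (SD 0.11), the ephrin receptor Epha4, at 10.1, 12.8, 12.2, 12.6, 13.1 and 12.2 FPKM (SD 0.12), the phosphatases Ptprm (SD 0.12) and Ptprb (SD 0.13), and the factor Pou3f2 (SD 0.14). Fibronectin (Fn1, SD 0.19) and the lipid transfer protein Pltp (SD 0.20) were among the narrowest secreted proteins, and Trpm3 (SD 0.25) was the narrowest channel. After median of ratios scaling, the 10 narrowest receptors, the 10 narrowest secreted proteins and the 10 narrowest transporters kept 0, 0 and 1 of these members. In their place stood genes that were lower in naive 5 and 6 by about as much as the typical gene. The endothelin receptor Ednrb, at 37.6, 47.2, 36.9, 39.5, 23.7 and 23.2 FPKM as deposited, then had an SD of 0.08, as did the neutral amino acid transporter Slc7a10. The helix-loop-helix factors Tcf4 and Usf2 had an SD of 0.07.

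Within naive 1 to 4 alone, some members were steady and others were not. The growth factor Hdgf stood at 34.1, 34.2, 36.2 and 34.3 FPKM (SD 0.04), and the glucocorticoid receptor Nr3c1 at 15.5, 17.0, 15.7 and 16.6 FPKM (SD 0.06). The Notch target Hes5 ranged most among transcription factors, at 14.5, 36.5, 6.46 and 12.0 FPKM (SD 0.97), followed by Klf2, a factor of endothelial cells, at 16.0, 11.1, 27.9 and 36.0 FPKM (SD 0.73). Naive 2, the library of the oldest mouse at 21 weeks, had the highest Hes5 value of the 6. With 1 library of that age, age and library cannot be told apart.

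Some of the most variable secreted proteins are known from liver. A list of 27 such genes, chosen after their values were seen, had 26 expressed members. Alb, the main protein of blood plasma, stood at 137, 951, 1643, 96.1, 574 and 433 FPKM in naive 1 to 6. Naive 3 was highest and naive 4 lowest, so naive 5 and 6 were not the libraries that stood apart here. The fibrinogen chain Fgb stood at 10.1, 90.2, 117, 9.35, 48.9 and 33.7 FPKM, the liver cytochrome Cyp2e1 at 25.3, 117, 205, 21.7, 97.9 and 67.9 FPKM, and the urea cycle enzyme Cps1 at 6.75, 33.8, 47.9, 3.67, 24.0 and 22.2 FPKM. Of the 27 genes, 26 were highest in naive 3, and naive 1 and 4 were both below the other 4 in all 27, which held for 3.07% of expressed genes. Naive 2 and 3 were both above the other 4 in 24 of them, which held for 10.6% of expressed genes. Since the list was chosen on these values, the counts describe it and test nothing. Members of the Serpina1 and Mup families are near copies of each other, and their separate values are uncertain.

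**Figure D5:**
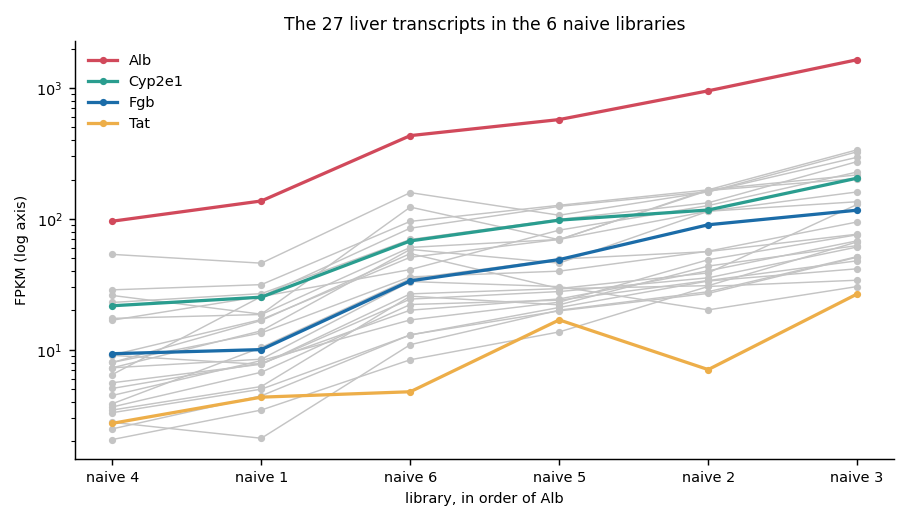
FPKM (log axis) of the 27 liver transcripts in the 6 naive libraries, placed in the order of their Alb level, with 1 line per gene and 4 genes in colour. Most lines run upward together from naive 4 to naive 3, and Alb goes from 96.1 to 1643 FPKM.

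The ratios between these genes differed in how steady they were. Ahsg, a plasma glycoprotein, was 17.0% to 21.7% of Alb in the 6 naive libraries, Cyp2e1 was 12.3% to 22.6% and Serpina3k 6.75% to 18.6%, while Alb itself ranged from 96.1 to 1643 FPKM. Markers chosen afterwards for kidney (9), heart muscle (7), lung (4) and pancreas (6) had 0 members at 10 FPKM. The source of the liver transcripts was not tested. They were not particular to naive mice, as Alb ranged from 104.5 to 1661 FPKM in the 12 trained libraries. The liver list held 10 of the 102 expressed secreted proteins, and the other 92 had a median spread of 0.61, beside 0.65 with them. Over naive 1 to 4 alone the median was 0.40 with the liver genes and 0.38 without them.

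The 250 bases before the start of 3 of the liver genes are shown, from RefSeq for GRCm38.p6. That is a later build than the mm9 of the deposited values. Capitals mark GTTAAT or its reverse complement, a part of the motif read by the liver factor HNF1. Alb lies at chr5:90460620-90460869 on the plus strand, Fgb at chr3:83049864-83050113 on the minus strand and Serpina1e, a protease inhibitor of plasma, at chr12:103956898-103957147 on the minus strand, each written 5′ to 3′ along the gene.
Alb: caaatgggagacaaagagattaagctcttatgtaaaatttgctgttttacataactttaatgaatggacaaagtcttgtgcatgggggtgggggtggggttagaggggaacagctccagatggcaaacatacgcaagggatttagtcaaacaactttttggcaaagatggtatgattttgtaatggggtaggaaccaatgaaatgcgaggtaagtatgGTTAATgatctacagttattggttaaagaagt
Fgb: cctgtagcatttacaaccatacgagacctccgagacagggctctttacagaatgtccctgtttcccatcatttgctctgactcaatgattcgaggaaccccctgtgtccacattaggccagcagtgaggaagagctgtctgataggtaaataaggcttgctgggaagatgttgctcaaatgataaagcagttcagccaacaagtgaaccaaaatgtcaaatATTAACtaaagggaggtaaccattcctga
Serpina1e: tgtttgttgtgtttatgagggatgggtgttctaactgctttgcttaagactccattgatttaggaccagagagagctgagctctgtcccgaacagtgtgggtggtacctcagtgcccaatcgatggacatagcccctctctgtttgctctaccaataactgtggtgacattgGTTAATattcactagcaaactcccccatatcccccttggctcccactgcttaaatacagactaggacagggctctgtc
Of the 27 genes 21 had an entry, and 8 of these held GTTAAT on either strand (38.1%), beside 2023 of 27025 genes in the table (7.49%). The 8 were Alb, Fga, Fgb and the 5 Serpina1 copies, which share their sequence and are not independent. The TATA box TATAAA, which neither contains the first motif nor lies within it, was found on either strand in 4 of 21 (19.0%) and in 14.3% of all genes. A match is a run of letters in a window and no evidence of binding. The genes were chosen as known from liver, and why their levels varied between libraries was not tested.

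Whether the untrained state differed from the trained one was asked for all genes in a single fit of naive against the mean of novice and expert (limma on log2(FPKM + 1), two-sided, adjusted by Benjamini-Hochberg over 21745 genes). It called 0 genes (0%), and 485 had an unadjusted p under 0.05 (2.23%), 189 of them higher in naive. Of the 142 tested genes that were named by rule for their level, spread or list, 0 had an unadjusted p under 0.05. The smallest, for Igfbp7, a binding protein of insulin-like growth factors, was an unadjusted p of 0.094 in limma (adjusted p = 1), with means of 52.1 FPKM in naive and 79.0 FPKM in trained mice. Slc1a2 had a mean of 1397 FPKM in naive and 1224 FPKM in trained libraries, a log2 difference of 0.20 ± 0.43 (SE). Its medians were 1503 FPKM in naive, 677 FPKM in novice and 1457 FPKM in expert libraries. The silent family mean also varied in the trained libraries, from 4.22 to 5.2 FPKM in novice 3 to 6 beside 2.26 and 1.99 FPKM in novice 1 and 2. In expert 1 to 6 it was 2.73, 1.24, 0.252, 5.06, 3.88 and 1.61 FPKM. The fit did not adjust for it. A difference that misses the threshold does not show equal levels, and the p-values measure only the spread between these libraries. The leading genes were largely shared: of the 10 highest naive members, 7 receptors, 8 transporters, 9 channels, 7 transcription factors and 9 secreted proteins were also among the 10 highest in novice, and 8, 9, 9, 9 and 10 in expert.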

How the data were processed

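RNA was recovered from astrocytes by proteinase K digestion and silica column, and total RNA libraries were made with a stranded SMARTer kit, per the labels' protocols. Per the submitters' processing notes the authors used TopHat and Cufflinks with build mm9, with versions, options and annotation not given in the sources used. The authors deposited 1 FPKM value per gene and library in a table whose name speaks of normalized counts. Whether they scaled libraries to each other is not stated in the sources. Of 23951 entries, 27 carried names turned into dates and were left out, which left 23924 genes. A value under 0.001 FPKM is called listed at 0.

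The sequencing depth is unknown. The value of 1 fragment on 1 kb was read from the steps of low values in 119 olfactory receptor genes with a single transcript, and was 1.10, 0.815, 0.88, 1.09, 1.20 and 1.90 FPKM in naive 1 to 6. Of those values 64.3% to 70.5% lay within 0.1 of a whole multiple. In 0 pairs of naive libraries were the values identical. Xist and Ddx3y fitted the labelled sex in the 6 naive libraries but not in the libraries labelled novice 1 (female, Xist at 1.60 and Ddx3y at 12.6 FPKM) and novice 3 (male, 18.0 and 3.29 FPKM), which enter the trained group.

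Genes were sorted into classes by symbol. The median, the range and the SD of log2(FPKM + 1) were computed over the 6 libraries with pandas 2.3.3 in Python 3.11.15. The naive libraries were compared with the 12 trained ones with limma 3.58.1 in R 4.3.3 (lmFit, eBayes with trend, 1 mean per group, genes at 1 FPKM or more in at least 6 of 18 libraries, adjusted p under 0.05). The limma and spread steps were tested on simulated data. Named genes are the 10 highest of all genes and of each class, the 3 of widest and of narrowest spread in each class, the highest of each subclass and the 3 highest of each marker list. Predicted loci are not named, and a few other genes that the rule takes are not reported here, though counts and medians include them. The genes, classes and lists were chosen with earlier results of these data known, and the liver, kidney, heart muscle, lung and pancreas lists, the silent family members and the genes of other spread settings after the values were seen. Alternatives were another scaling, other filters, a pseudocount of 0.1, background subtraction and the omission of libraries.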

Additional observations from a re-analysis of the deposited data

Results flagged for a closer look

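In 5 of 178 sets of 6 naive values (single named genes on the log2(FPKM + 1) scale and list means), 1 library lay far from the other 5, where chance flags about 1 in 20. Snord33 was lowest in naive 5, at 12.29 (5008 FPKM) with the nearest library at 13.37, and Mir8114 was lowest in naive 5 at 7.66 (202 FPKM), the nearest being 11.75. Epha4, whose spread was among the narrowest as deposited, was lowest in naive 1 at 3.48 (10.1 FPKM), the nearest being 3.72. Kcnmb4 was listed at 0 in naive 6, a log2 value of 0.00 beside 3.53 in naive 5. The mean of the microglia and macrophage list was 1.88 in naive 6, with the nearest library at 2.57. In that library Tyrobp, C1qb, Cd68 and Tmem119 were listed at 0, with medians over the 6 libraries of 7.33, 5.49, 4.79 and 0.872 FPKM. A gene of 1 kb at 10 FPKM rested on 5.28 fragments there. Cx3cr1 and Itgam stood at 33.5 and 18.9 FPKM and were higher than in naive 1 to 4. Of the 14 markers 4 were higher and 5 lower in both naive 5 and 6 as deposited, beside 17.8% and 55.4% of all expressed genes.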

How the results depend on the processing

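The counts of expressed genes depend on the level chosen. At 5 FPKM in place of 10 they were 9281 for all genes, 192 for receptors, 179 for transporters, 88 for channels, 378 for transcription factors and 164 for secreted proteins, and at 20 FPKM they were 2179, 45, 46, 22, 55 and 56. Above the 95th percentile of the silent families in all 6 libraries they were 2605, 63, 57, 23 and 96 for all genes and the first 4 classes. The median spread without naive 5 and 6 was 0.28 for all genes, 0.27 for receptors, 0.28 for transporters, 0.27 for channels, 0.26 for transcription factors and 0.40 for secreted proteins, median of ratios scaling gave 0.36 for channels, and secreted proteins outside the liver list had 0.38 over naive 1 to 4. The genes higher and lower in naive 5 and 6 were 28.8% and 26.9% after that scaling. For naive against trained, the number at an unadjusted p under 0.05 was 206 and 25 with filters of 5 and 20 FPKM and 1264 with the silent family mean as a covariate, beside 485, and limma called 0 genes in each. Leaving out 1 library at a time gave 405 to 800 such genes and 0 to 1 called, the 800 without naive 5 and the 1 without novice 1, a predicted locus (adjusted p = 0.041 in limma). Replicate numbers did not pair the libraries, since 10 of 18 same-numbered pairs had a correlation of deviations over 0.1 (-0.38 to 0.48) and 1 of 18 libraries matched its own number best; with the replicate block limma called 0 genes and 575 had an unadjusted p under 0.05. Of 300 alternative levels of the 50 leading class members, 0 moved by 1 SD or more, here the SD of FPKM over the 6 libraries. That SD was wide, as 711.6 FPKM for Slc1a2 at a median of 1503 FPKM, so the count says little. Of the omissions of 1 library, only the value farthest from the reported median was counted for each gene. Directions could change, as Ptprm and Foxp1 were lower in naive 5 and 6 as deposited and higher there after median of ratios scaling. Depth limits genes near 10 FPKM most in naive 6, where a gene of 1 kb rested on 5.28 fragments.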

Other observations

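Several genes outside the liver list had their highest value in naive 3 and their 2 lowest in naive 1 and 4, and were picked out after their values were seen. Complement C3 stood at 9.08, 47.6, 109, 6.07, 42.5 and 28.7 FPKM in naive 1 to 6, and Ttr, a carrier of thyroid hormone made by choroid plexus and liver, at 11.0, 43.4, 101, 6.71, 36.2 and 33.6 FPKM. Slc10a1, the bile acid uptake transporter of liver, stood at 8.16, 11.3, 26.5, 3.79, 11.7 and 9.71 FPKM. Of the 10 choroid plexus and ependymal genes, which include Ttr, Aqp1 had the same pattern at 0.334 to 4.06 FPKM, Kl, Foxj1 and Folr1 were higher in naive 5 and 6 than in the other 4, and the rest overlapped.

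Of the 12 oligodendrocyte markers 4 were higher and 2 lower in naive 5 and 6 as deposited (median log2 difference 0.58). After median of ratios scaling 8 were higher and 2 lower (1.04). Of all expressed genes 17.8% were higher and 55.4% lower as deposited, and 28.8% and 26.9% after scaling. The list had a median of 1.9 FPKM, with 5 of 12 members expressed. Silent families stood at differences of 0.93 and 1.35, and the part of that background in the list was not tested. Mbp, which encodes myelin basic protein, stood at 61.9, 125, 137, 159, 16.1 and 10.7 FPKM, whereas Ermn, another myelin gene, stood at 31.7, 16.2, 21.7, 15.5, 49.8 and 64.6 FPKM, so that the pair naive 5 and 6 was lowest in the first and highest in the second, with either scaling. Among the silent families, 3 members exceeded a median of 100 FPKM: Vmn1r58 at 484 FPKM, Olfr613 at 326 FPKM and Vmn2r55 at 188 FPKM. Each was highest in naive 5 and 6, and 10 of 1548 such genes reached 10 FPKM.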
